A study of Mus musculus with 3 samples.

Results

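The Wnt ligands, receptors and modulators measured here are the 61 genes whose symbols begin with Wnt and a digit, Fzd and a number, Sfrp, Dkk, Dvl, Axin or Rspo, together with Lrp5, Lrp6, Ctnnb1, Apc, Gsk3b, Tcf7, Tcf7l1, Tcf7l2, Lef1, Frzb, Wif1, Lgr4 and Lgr5, out of 27998 genes in the count matrices. They comprise 19 Wnt ligands, 4 R-spondins (co-ligands), 14 receptors, 11 secreted inhibitors or related secreted proteins, 8 cytoplasmic components, 4 nuclear factors and 1 antisense RNA, Rspo4os. Gene choice used symbols and no measured value. Wnt ligands are lipid-modified secreted proteins that bind Frizzled receptors together with Lrp5 or Lrp6. In the canonical branch this spares β-catenin (Ctnnb1) from the Apc, Axin and Gsk3b destruction complex, so that it can act with TCF/LEF factors on target genes, whereas ligands such as Wnt5a mostly use other branches. In the thymus, Wnt4 from the epithelium is known to support Foxn1 expression, and Tcf7 and Lef1 are needed by early thymocytes.

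Single-cell 3' RNA libraries were made from C57BL/6 fetal thymic lobes taken at embryonic day 13 to 13.5 and dissociated with trypsin, 1 library for each of 3 genotypes. The control was wild type, Tbx1neo2/neo2 embryos are homozygous for a neomycin insertion in an intron of Tbx1 that lowers its expression, and Foxn11089/1089 embryos are homozygous for the 1089 allele, a small coding deletion, of Foxn1, the epithelial transcription factor of the thymus. How many embryos each library pooled is not given in the sources used here. With 1 library per genotype there is no replicate check: no difference between genotypes was tested, all intervals are 95% and cover counting error only, and genotype, library and dissection cannot be told apart. Total unique molecular identifiers (UMIs) were 82936619 in the control library, 137498422 in the library labelled Tbx1neo2/neo2 and 204655055 in the Foxn11089/1089 library, and 5932, 5516 and 11772 cells were kept. Tbx1 itself was not lower in the library labelled Tbx1neo2/neo2. Its level was 1.39 counts per 1000000 UMIs (CPM) in the control, 4.81 CPM in the library labelled Tbx1neo2/neo2 and 5.43 CPM in the Foxn11089/1089 library. These levels sum over all kept cells, whose kinds differ between libraries. They rest on 114, 656 and 1102 UMIs, and the study states that Tbx1 is not expressed in the embryonic thymus. Whether 3' counts follow the effect of the intron insertion was not tested, so these values cannot check the genotype. The name Tbx1neo2/neo2 is used as a label throughout. Foxn1 transcripts, stood at 38.4, 34.6 and 76.5 CPM in the same order.

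Source and receiving cells were taken as cells with a UMI of exactly 1 dominant class gene, which made up at least 80% of the UMIs of the 4: Epcam (epithelium), Pdgfra (mesenchyme), Cdh5 (endothelium) and Ptprc (haematopoietic cells). In the control library, the library labelled Tbx1neo2/neo2 and the Foxn11089/1089 library, these held 2169, 927 and 4188 Epcam-positive cells, 983, 1570 and 2636 Pdgfra-positive cells, 51, 108 and 111 Cdh5-positive cells, and 877, 313 and 342 Ptprc-positive cells. Over the 20 panel markers (5 per class) the level in any other class was at most 13.5% of that in the class itself. Levels below are UMIs summed over a class in CPM of that class's UMIs, in the order control, labelled Tbx1neo2/neo2, Foxn11089/1089 unless named otherwise. Each 3' UMI counts 1 molecule whatever the transcript's length, so CPM was not divided by length.

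Among the 4 classes, Wnt ligand transcripts were highest in epithelium and mesenchyme. Summed over the 19 ligands, Epcam-positive cells held 198 CPM (193 to 203) in the control library, 236 (231 to 241) in the library labelled Tbx1neo2/neo2 and 226 (223 to 230) in the Foxn11089/1089 library. Pdgfra-positive cells held 76.5 CPM (71.2 to 82.2), 207 (203 to 212) and 120 (117 to 124). Ptprc-positive cells held 2.95 (2.19 to 3.89), 4.45 (3.53 to 5.53) and 3.82 (2.69 to 5.27) CPM. Red blood cells without any class gene, taken as a measure of RNA carried over in the droplets, were lower in each library. They held 1.18 (0.322 to 3.02), 2.92 (1.76 to 4.56) and 3.51 (2.81 to 4.34) CPM, and the intervals overlap. By definition this group leaves out red blood cells with a class gene UMI. All red blood cells, with or without a class gene, held 7.46, 9.27 and 36.9 CPM, above the Ptprc-positive cells in each library. Whether the low levels in Ptprc-positive cells are expression or carried-over RNA was not tested. Cdh5-positive cells held at most 15.0 CPM, and their control level of 3.72 CPM rests on 3 UMIs. Cells outside the 4 classes also held ligand transcripts, at 50.6, 103 and 80.6 CPM in cells with no class gene and 20.9, 71.2 and 111 CPM in cells with mixed class genes.

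**Figure D1:**
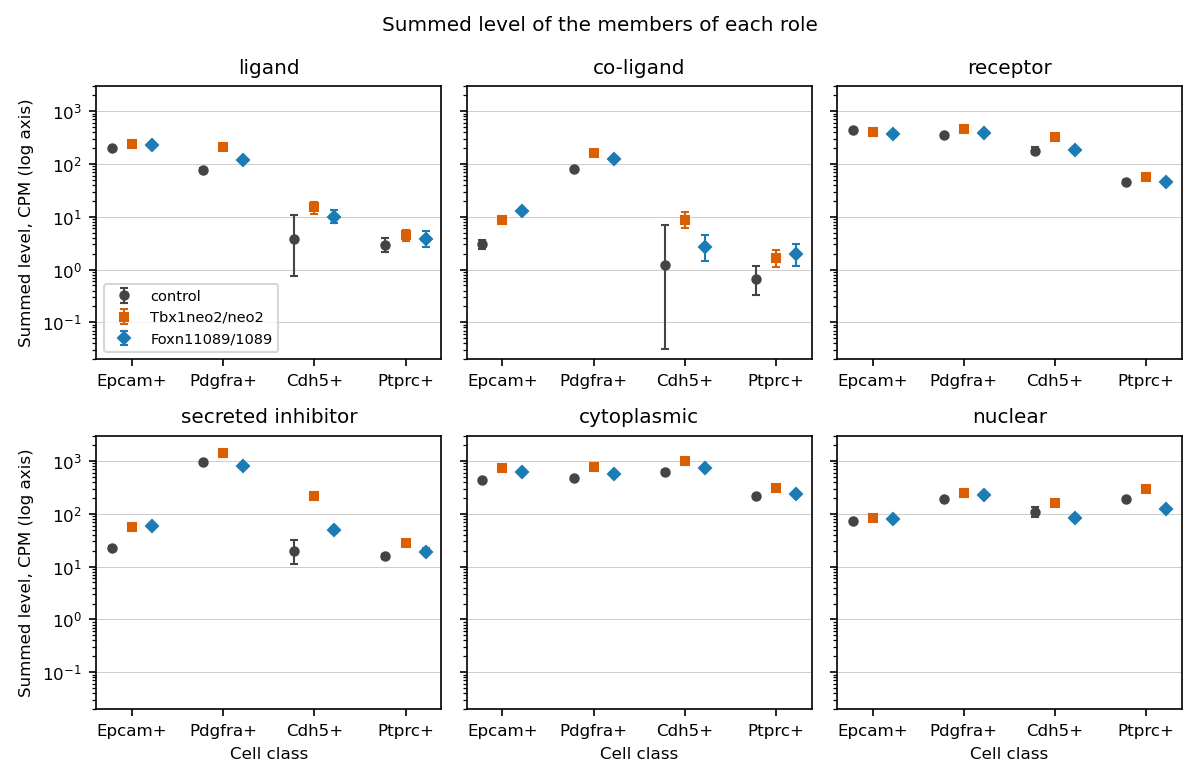
Summed level of each role's members (CPM, log axis) in the 4 cell classes, 1 point per library, with bars for the 95% Poisson counting interval. Ligands were high in Epcam-positive (198 to 236 CPM) and Pdgfra-positive cells (76.5 to 207 CPM), and R-spondins and secreted inhibitors were high in Pdgfra-positive cells.

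Of the 61 members, 19 had the same leading class in all 3 libraries, meaning at least 10 UMIs there and a level at least 2-fold that of every other class. Epcam-positive cells led for 5, all ligands: Wnt4, Wnt6, Wnt7a, Wnt7b and Wnt10a. Pdgfra-positive cells led for 11, namely the ligands Wnt2, Wnt2b, Wnt5a and Wnt9a, the R-spondins Rspo1, Rspo2 and Rspo3, and the inhibitors Dkk1, Frzb, Sfrp1 and Sfrp2. The rule compares the 4 classes only. In cells without a class gene Rspo1 was at 5.60, 30.7 and 25.8 CPM, above its Pdgfra-positive level, though only narrowly in the control. The Cdh5-positive class led for 1 receptor, Fzd4, and the Ptprc-positive class for Tcf7 and for Dkkl1, a Dickkopf-like gene. The other 42 members, among them 10 of the 19 ligands, all 8 cytoplasmic components and 13 of the 14 receptors, had no such class. Of the 19 ligands, 9 thus had epithelium or mesenchyme as their common leading class and 10 had none.

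**Figure D2:**
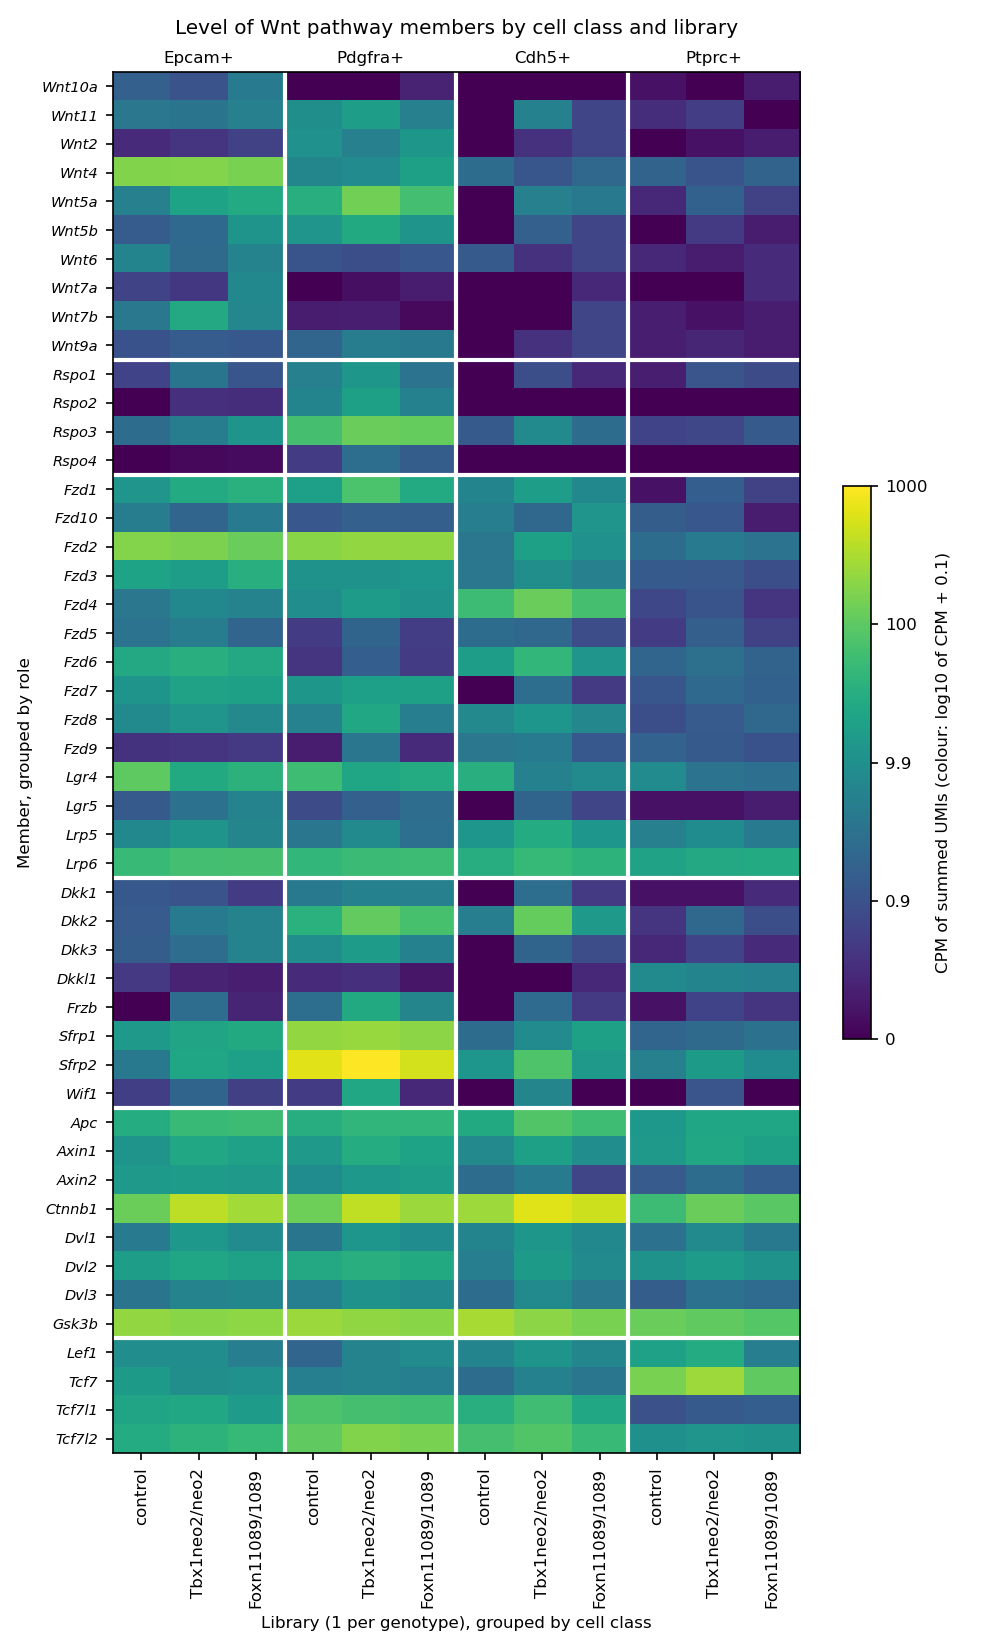
Level (CPM, colour on a log10 scale) of every member that reached 2 CPM in some class, in rows grouped by role, against 3 libraries in each of 4 cell classes. Wnt4 is bright in Epcam-positive, Wnt5a, Rspo3, Sfrp1 and Sfrp2 in Pdgfra-positive, Fzd4 in Cdh5-positive and Tcf7 in Ptprc-positive cells of every library.

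Wnt4 (chr4:137277489-137299726, GRCm38, protein coding) was the main epithelial ligand. Its level in Epcam-positive cells was 173 CPM (168 to 177) in control cells, 178 (174 to 182) in the library labelled Tbx1neo2/neo2 and 155 (152 to 157) in the Foxn11089/1089 library, so the 3 libraries lay close together. It made up 87.3%, 75.5% and 68.4% of the epithelial ligand UMIs. After every cell was thinned to 2000 UMIs, which left out 78, 74 and 228 shallower Epcam-positive cells, 27.9%, 28.0% and 26.2% of those cells had a Wnt4 UMI, against 0.344%, 0% and 0.298% of Ptprc-positive cells. Unthinned, at median depths of 16130, 41401 and 19659 UMIs, the epithelial shares were 82.2%, 79.2% and 73.9%. Within the epithelium, Wnt4 was highest in cells with at least 3 of the thymic epithelial markers Foxn1, Psmb11, Ccl25 and Dll4. These were 142, 46 and 35 Epcam-positive cells, with 207, 281 and 319 CPM of Wnt4. Foxn1 is itself a marker of this panel, so the cells picked in the Foxn11089/1089 library may differ in kind. These levels therefore cannot be read as a difference between genotypes. In the 185 cells of the Foxn11089/1089 library with at least 3 parathyroid markers (Pth, Gcm2, Chga, Casr) Wnt4 was at 8.50 CPM.

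The smaller epithelial ligands differed more between libraries. Wnt7b (chr15:85535437-85582473), a canonical ligand known from lung and other endodermal epithelia, stood at 3.94 CPM in the control, 25.4 CPM in the library labelled Tbx1neo2/neo2 and 6.89 CPM in the Foxn11089/1089 library. In the library labelled Tbx1neo2/neo2, cells with thyroid markers had only 2.82 CPM and those with thymic epithelial markers 3.16 CPM. There 213 of the 927 Epcam-positive cells had a Wnt7b UMI. Wnt7a, its close relative, stood at 0.563 and 0.348 CPM and reached 7.32 CPM only in the Foxn11089/1089 library, where 567 of 4188 Epcam-positive cells had a UMI. Wnt6 was at 6.17, 2.32 and 6.09 CPM, lower in the library labelled Tbx1neo2/neo2 than in the other 2. Wnt10a was at 1.58, 0.950 and 4.12 CPM, highest in the Foxn11089/1089 library. Wnt1 and Wnt8a had no epithelial UMI in any library, which allows up to 0.0845, 0.0695 and 0.0317 CPM, and Wnt3a and Wnt8b had no more than 0.0282 CPM.

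Wnt5a (chr14:28504750-28527448), the main ligand of non-canonical signalling, led in the mesenchyme. Pdgfra-positive cells held 32.9 CPM (29.4 to 36.6) in control cells, 141 (137 to 145) in the library labelled Tbx1neo2/neo2 and 64.0 (61.5 to 66.5) in the Foxn11089/1089 library, or 42.9%, 68.0% and 53.2% of their ligand UMIs. The intervals of the 3 libraries do not overlap. At 2000 UMIs per cell, 6.11%, 21.6% and 11.1% of Pdgfra-positive cells had a Wnt5a UMI (23.3%, 73.6% and 44.1% unthinned), against 0%, 0% and 0.218% of red blood cells without class genes. The other mesenchymal ligands were lower: Wnt5b at 11.9, 26.8 and 11.8 CPM, Wnt2 at 10.4, 5.44 and 13.1 CPM, and Wnt11 at 9.60, 16.8 and 5.46 CPM. Wnt5a was also present in Epcam-positive cells, at 5.35, 20.6 and 27.9 CPM, lowest in the control.

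Part of that epithelial Wnt5a lay in cells with markers of neighbouring organs. In the Foxn11089/1089 library the parathyroid-marker cells, 4.42% of Epcam-positive cells, held 149 CPM of Wnt5a and 44.4% of the class's Wnt5a UMIs, and 87.9 CPM of Wnt5b and 62.1% of its UMIs. They also held 133 CPM of the receptor Fzd1, 101 CPM of Lgr4 and 31.7 CPM of Wnt7b. In the library labelled Tbx1neo2/neo2 the 54 cells with at least 3 thyroid markers (Foxe1, Nkx2-1, Pax8, Hhex), 5.83% of Epcam-positive cells, held 64.5 CPM of Wnt5a and 25.8% of its UMIs. Thymic-epithelium-marker cells held only 5.60, 8.42 and 4.39 CPM of Wnt5a. The control library had 10 parathyroid- and 2 thyroid-marker Epcam-positive cells, too few to give levels.

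**Figure D3:**
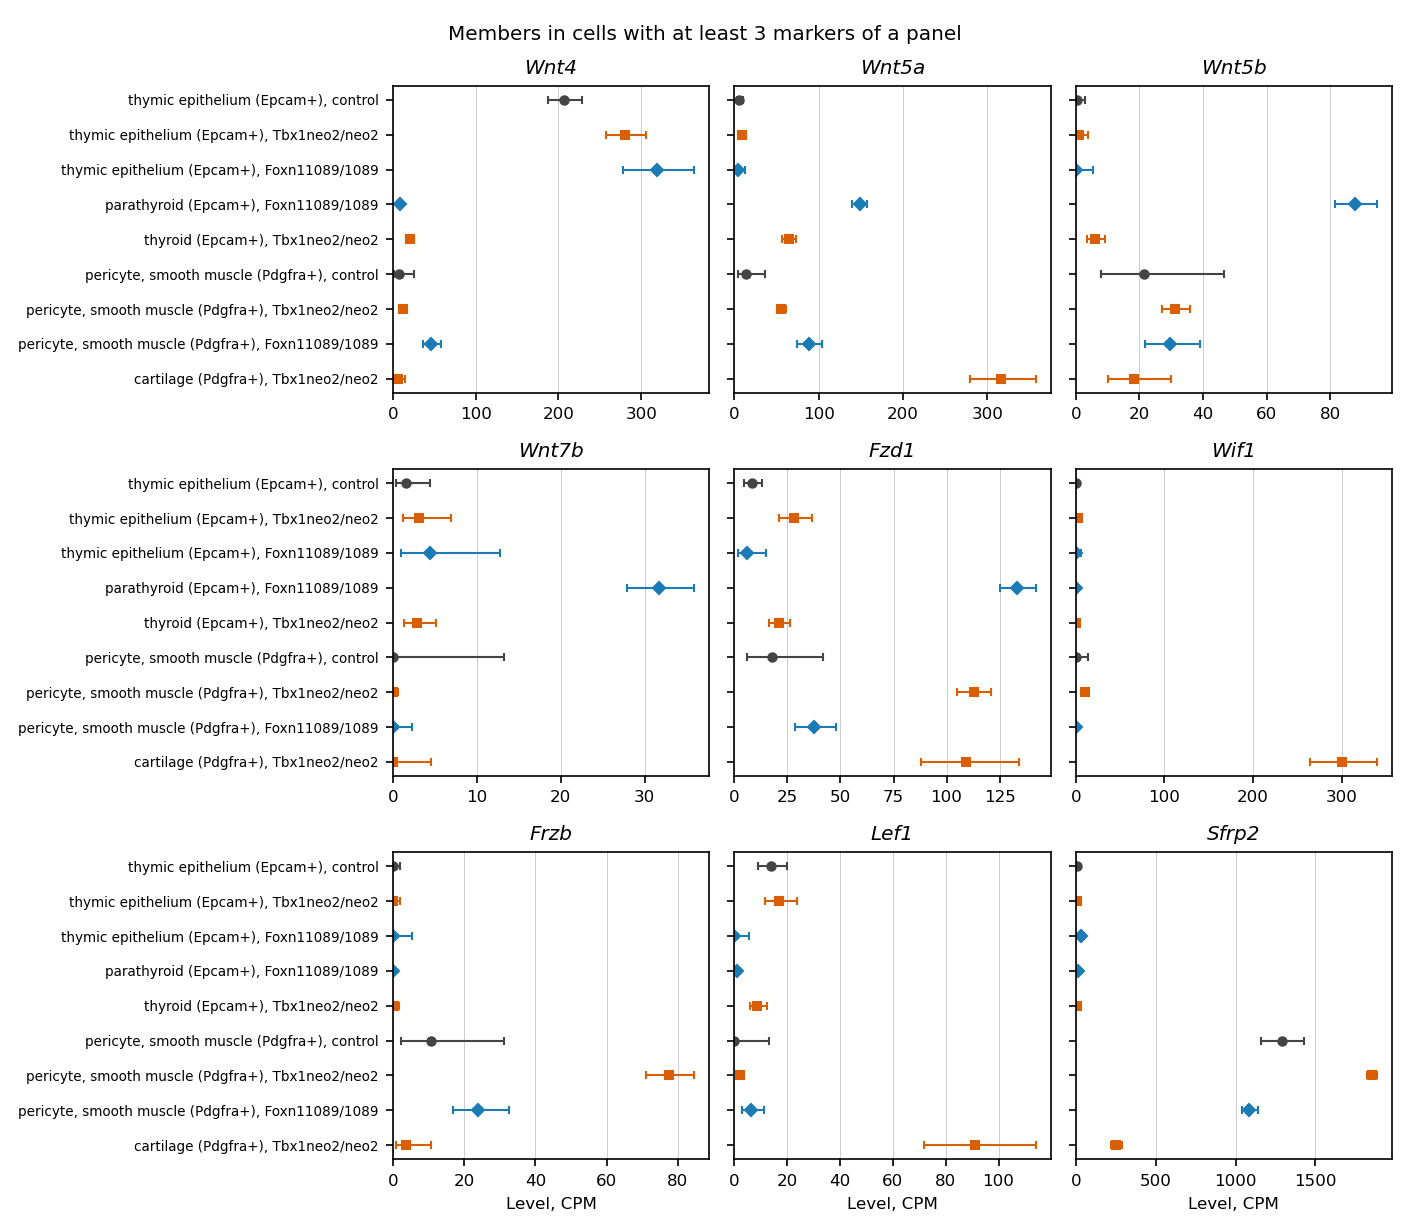
Level (CPM, with 95% Poisson intervals) of 9 members in 9 groups of cells that carried at least 3 markers of a panel, 1 row per panel, class and library (in brackets the class). Among these groups Wnt4 was highest in thymic-epithelium-marker cells (207 to 319 CPM), Wnt5b and Fzd1 in parathyroid-marker cells (87.9 and 133 CPM), and Wif1 and Lef1 in cartilage-marker cells (300 and 91.1 CPM).

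Among the R-spondins, which amplify Wnt signals through Lgr receptors, Rspo3 (chr10:29452416-29535867) was the most abundant and mesenchymal, at 66.8 CPM (61.8 to 72.1), 123 (120 to 127) and 114 (110 to 117) in Pdgfra-positive cells. At equal depth 11.9%, 19.8% and 17.3% of those cells had a UMI. Rspo2 stood at 6.17, 18.7 and 5.61 CPM, Rspo1 at 5.36, 13.1 and 3.21 CPM, and Rspo4 at 0.404, 2.66 and 1.42 CPM, so these 3 stood highest in the library labelled Tbx1neo2/neo2. Rspo4os did not pass 0.202 CPM in any of the 4 classes.

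The receptors were shared by epithelium and mesenchyme, with other members in endothelium. Fzd2 was the most abundant Frizzled gene in both, at 184, 164 and 122 CPM in Epcam-positive and 195, 226 and 216 CPM in Pdgfra-positive cells, and it was at 2.54, 4.12 and 3.20 CPM in Ptprc-positive cells. Fzd6 was epithelial and endothelial, with 25.8, 33.3 and 26.2 CPM in Epcam-positive, 17.3, 44.4 and 12.3 CPM in Cdh5-positive and at most 1.46 CPM in Pdgfra-positive cells. Fzd4 (chr7:89404355-89413134), which in vessels is known as the receptor for the ligand norrin, marked the Cdh5-positive class, at 54.5 CPM (39.6 to 73.2), 123 (112 to 135) and 65.8 (59.0 to 73.2). These Fzd4 levels exceeded the next class in every library. The co-receptor Lrp6 was found in all classes, at 50.1, 64.7 and 66.2 CPM in Epcam-positive and 20.2, 26.1 and 27.6 CPM in Ptprc-positive cells, whereas Lrp5 did not pass 28.3 CPM in any class.

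Lgr4, an R-spondin receptor (chr2:109917647-110014257), was lower in both mutant-labelled libraries in every class. Epcam-positive cells held 103 CPM (99.6 to 106) in control cells, 27.2 (25.7 to 28.8) in the library labelled Tbx1neo2/neo2 and 36.6 (35.3 to 37.8) in the Foxn11089/1089 library. Pdgfra-positive cells held 57.1, 22.7 and 29.1 CPM, Cdh5-positive cells 32.2, 5.61 and 8.10 CPM, and Ptprc-positive cells 8.38, 3.24 and 2.79 CPM. The parathyroid-marker cells of the Foxn11089/1089 library, at 101 CPM, and the thymic-epithelium-marker cells of the control, at 122 CPM, were the Epcam-positive groups with the highest level. Lgr5, a related receptor and canonical target gene, was at 1.27, 3.04 and 6.08 CPM in Epcam-positive cells. At 2000 UMIs per cell it had a UMI in 0.383%, 0.352% and 1.09% of those cells, so at equal depth only the Foxn11089/1089 library stood above the control.

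The secreted inhibitors were largely mesenchymal. Sfrp2 (chr3:83766321-83774316), a soluble Frizzled-related protein, was the most abundant extracellular member at 670 CPM (654 to 686), 972 (962 to 981) and 534 (526 to 541) in Pdgfra-positive cells, where 39.2%, 54.0% and 43.8% of cells had a UMI at equal depth. Sfrp1 followed at 221, 240 and 200 CPM. In the pericyte- and smooth-muscle-marker cells among them (Rgs5, Acta2, Tagln and others), Sfrp2 reached 1291, 1852 and 1087 CPM. Dkk2, a Dickkopf ligand of Lrp5 and Lrp6, stood at 35.9, 110 and 68.8 CPM in Pdgfra-positive cells. In Cdh5-positive cells Dkk2 stood at 4.95 CPM (1.35 to 12.7) in control cells, 115 (105 to 127) in the library labelled Tbx1neo2/neo2 and 14.3 (11.2 to 17.9) in the Foxn11089/1089 library, with a UMI in 4 of 51, 54 of 108 and 15 of 111 cells. The endothelial difference rests on 4 control UMIs. Dkkl1 was found in Ptprc-positive cells at 7.73, 6.26 and 5.69 CPM, and Dkk4 was at or near 0 throughout.

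Wif1, which binds Wnt ligands outside the cell (chr10:121033960-121100650), and Frzb, also called Sfrp3 (chr2:80411970-80447625), stood apart in the library labelled Tbx1neo2/neo2. Wif1 was at 0.404 CPM (0.110 to 1.04) in control Pdgfra-positive cells, 24.9 (23.4 to 26.4) in that library and 0.177 (0.0711 to 0.365) in the Foxn11089/1089 library, with a UMI in 3, 240 and 7 cells. Frzb was at 2.73 (1.80 to 3.97), 26.9 (25.4 to 28.5) and 6.52 (5.75 to 7.37) CPM. Part of the UMIs of both lay in cells with other markers, and the part of such cells in the differences was not tested. The library labelled Tbx1neo2/neo2 had 35 Pdgfra-positive cells with at least 3 cartilage markers (Sox9, Col2a1, Acan, Col9a1, Matn1) and the other 2 libraries had 0. Those 35 cells, 2.23% of the class, held 300 CPM of Wif1 and 23.8% of its UMIs, 43.7 CPM of Fzd9 and 23.5% of its UMIs, 91.1 CPM of Lef1 and 29.5% of its UMIs, and 316 CPM of Wnt5a. For Frzb, 45.9% of the UMIs lay in 190 pericyte- and smooth-muscle-marker cells, at 77.6 CPM, against 10.7 CPM in 28 such cells of the control and 23.9 CPM in 100 of the Foxn11089/1089 library.

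**Figure D4:**
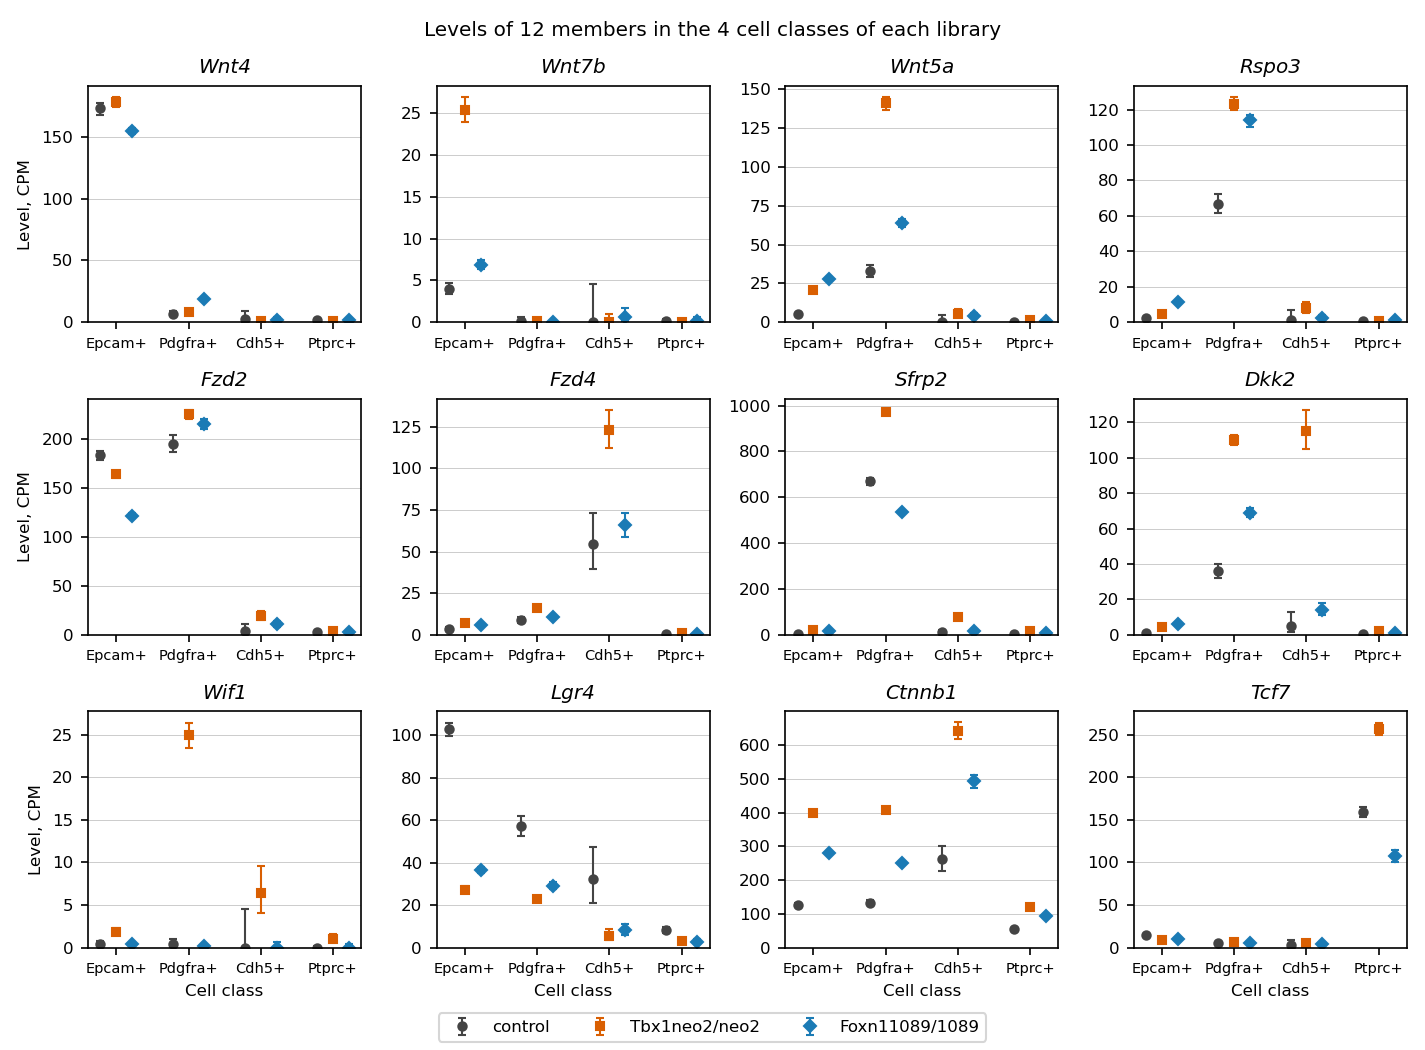
Level (CPM, axes from 0) of 12 members in the 4 cell classes, 1 point per library with 95% Poisson intervals. Wnt4, Wnt7b and Lgr4 were highest in Epcam-positive cells, and Wnt5a, Rspo3 and Sfrp2 in Pdgfra-positive cells. Fzd4 and Ctnnb1 were highest in Cdh5-positive cells and Tcf7 in Ptprc-positive cells. Wif1 was highest in Pdgfra-positive cells only in the library labelled Tbx1neo2/neo2.

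Cytoplasmic components were detected in all 4 classes. Ctnnb1, the transcript of β-catenin, was at 127 CPM (123 to 131), 399 (393 to 405) and 281 (278 to 285) in Epcam-positive, 133, 407 and 252 CPM in Pdgfra-positive, 263, 643 and 493 CPM in Cdh5-positive and 54.3, 121 and 93.7 CPM in Ptprc-positive cells. It was lowest in the control and highest in the library labelled Tbx1neo2/neo2 in every class. Gsk3b, the kinase that marks β-catenin for destruction, was highest in the control in all 4 classes, at 225, 192 and 208 CPM in Epcam-positive and 122, 104 and 88.4 CPM in Ptprc-positive cells. Apc, Axin1, Dvl1, Dvl2 and Dvl3 were each lowest in the control in Epcam-positive cells, between 3.32 CPM (Dvl3) and 30.2 CPM (Apc). Axin2, a scaffold that is also a canonical target gene, was at 14.3, 15.9 and 14.5 CPM in Epcam-positive and 8.79, 13.3 and 16.9 CPM in Pdgfra-positive cells, and at most 2.47 CPM in Ptprc-positive cells.

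Of the 4 nuclear factors, Tcf7 alone had the same leading class in all 3 libraries. Tcf7 (chr11:52252371-52283014), a factor of T cell commitment, was at 159 CPM (153 to 165), 257 (250 to 264) and 107 (101 to 114) in Ptprc-positive cells, where 23.2%, 31.4% and 16.1% had a UMI at equal depth, and at most 14.9 CPM in any other class. Lef1 (chr3:131110471-131224356), its close relative, was at 19.4 (17.4 to 21.6), 29.3 (26.8 to 31.9) and 5.07 (3.75 to 6.70) CPM in the same cells, and in the Foxn11089/1089 library it was higher in Pdgfra-positive cells, at 8.44 CPM. In Ptprc-positive cells both were lowest in the Foxn11089/1089 library, which had 0 Ptprc-positive cells with at least 3 thymocyte markers (Cd3g, Cd3d, Cd3e, Lck, Ptcra), whereas the control had 45 and the library labelled Tbx1neo2/neo2 had 17. The 45 control cells held 267 CPM of Tcf7 and 71.3 CPM of Lef1, and the part of such cells in the differences was not tested. Tcf7l2 and Tcf7l1 were highest in Pdgfra-positive cells, with 106, 174 and 158 CPM and 74.9, 65.9 and 58.7 CPM there, and in Ptprc-positive cells no more than 11.9 and 1.45 CPM.

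To compare genotypes within a class, each member's log2 ratio to the control was centred on the median ratio of all genes with at least 30 UMIs over both libraries. That median lay between 0.38 and 0.44 for the library labelled Tbx1neo2/neo2 and between 0.21 and 0.32 for the Foxn11089/1089 library. A centred ratio of at least 2-fold was called higher or lower, a rule of size and not a test. Both comparisons use the same control library. Fewer cells of a kind and less RNA per cell cannot be told apart in these sums.

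In Epcam-positive cells, 44 of 61 members could be compared for the library labelled Tbx1neo2/neo2. Of these, 9 were higher, beside 7.46% of all genes, and 7 were lower, beside 10.8%. Wnt7b, with 140 control and 1095 library UMIs, was 2.29 higher on the centred log2 scale (2.03 to 2.55), Rspo1 2.33 (1.64 to 3.10), Sfrp2 2.02 (1.77 to 2.28) and Wnt5a 1.55 (1.32 to 1.78). Frzb had 112 UMIs there and 0 in the control, so it was at least 23.3-fold higher after centring. Lgr4 was lower at -2.32 (-2.41 to -2.22), Wnt6 at -1.81 (-2.17 to -1.46) and Fzd10 at -1.66 (-2.06 to -1.27), while Wnt4, at -0.35 (-0.40 to -0.30), stayed inside 2-fold. Tcf7, at -1.08 (-1.27 to -0.89), was at -0.17 where classes were set by 5 markers each. Among the 4 classes, Sfrp2, Frzb and Rspo1 were highest in Pdgfra-positive cells, though Rspo1 reached 30.7 CPM in cells without a class gene. Sfrp2 was also higher in Ptprc-positive cells, at 1.09 (0.75 to 1.45), where it had 5.37 and 14.9 CPM. It was at 0.28 there where at least 2 Ptprc UMIs were required. In red blood cells without class genes Sfrp2 was at 1.18 and 7.54 CPM. Summed over the secreted inhibitors, all red blood cells held 8.75 and 42.1 CPM, with Sfrp2 at 32.4% and 68.2% of those UMIs. Ptprc-positive cells held 15.6 and 27.9 CPM of secreted inhibitors, with Sfrp2 at 34.5% and 53.5%. The part of carried-over RNA in these differences was not tested.

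For the Foxn11089/1089 library, 46 members could be compared in Epcam-positive cells, with 12 higher beside 11.9% of all genes and 4 lower beside 12.2%. Wnt7a, at 20 and 692 UMIs, was 3.38 higher (2.74 to 4.10), Wnt5b 2.78 (2.36 to 3.22), Wnt5a 2.06 (1.85 to 2.28), Lgr5 1.94 and Rspo3 1.91 (1.59 to 2.24). Without cells that carried at least 2 markers of another organ or lineage, the parathyroid-marker cells included, Wnt5b was at 0.40 and Wnt5a at 1.12, whereas Wnt7a was at 3.63. The Wnt5b call therefore ended without those cells. Lgr4 was lower at -1.81 (-1.88 to -1.74), Lef1 at -1.16 (-1.37 to -0.95) and Fzd5 at -1.10 (-1.44 to -0.75). Lef1 was at -0.96 without the cells of other panels, and Fzd5 at -0.56 where every cell was thinned to 2000 UMIs. Wnt4 was at -0.48 (-0.52 to -0.43) and Fzd2 at -0.91 (-0.95 to -0.86), both inside 2-fold.

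The mesenchyme of the library labelled Tbx1neo2/neo2 had the largest number of higher members. Of 47 compared, 15 were higher beside 9.73% of all genes and 2 were lower beside 9.28%, and the members' median was 0.49. Wif1, at 4 and 1038 UMIs, was 5.55 higher (4.19 to 7.43), Fzd9 4.79 (2.29 to 10.10) from 1 control UMI, Frzb 2.91 (2.36 to 3.52), Rspo4 2.32 (0.93 to 4.23) and Wnt5a 1.71 (1.55 to 1.87). Without cells of other panels, cartilage and pericyte markers included, Wif1 was at 4.76, Fzd9 at 3.73, Frzb at 2.49 and Wnt5a at 1.81. All 4 thus stayed past 2-fold. Fzd1 at 1.61 (1.39 to 1.84), Fzd8 at 1.64 (1.26 to 2.05), Dkk2 at 1.22 (1.06 to 1.38) and Ctnnb1 at 1.22 (1.14 to 1.30) were among the other higher members. Lgr4 was lower at -1.73 (-1.88 to -1.57) and Wnt2 at -1.33 (-1.67 to -0.98), the latter at -0.95 without cells of other panels and at -0.77 after thinning.

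In Pdgfra-positive cells of the Foxn11089/1089 library, 7 of 43 members were higher beside 3.54% of all genes and 2 were lower beside 6.39%. Lef1, at 1.92 and 8.44 CPM, was 1.93 higher (1.26 to 2.68), Lgr5 1.69 (0.59 to 3.04), Wnt4 1.26 (0.90 to 1.64), Dvl1 1.14 (0.63 to 1.69) and Frzb 1.05 (0.48 to 1.68). Lgr4 was lower at -1.18 (-1.32 to -1.03) and Wnt11 at -1.02 (-1.38 to -0.66). After thinning to 2000 UMIs per cell, Lgr5 was at 0.60, Frzb at 0.79 and Wnt11 at -0.90, all inside 2-fold. Wnt5a, at 0.75 (0.59 to 0.93), and Rspo3, at 0.56 (0.44 to 0.68), stayed inside 2-fold. Sfrp2 was at -0.54 (-0.58 to -0.50), also inside.

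**Figure D5:**
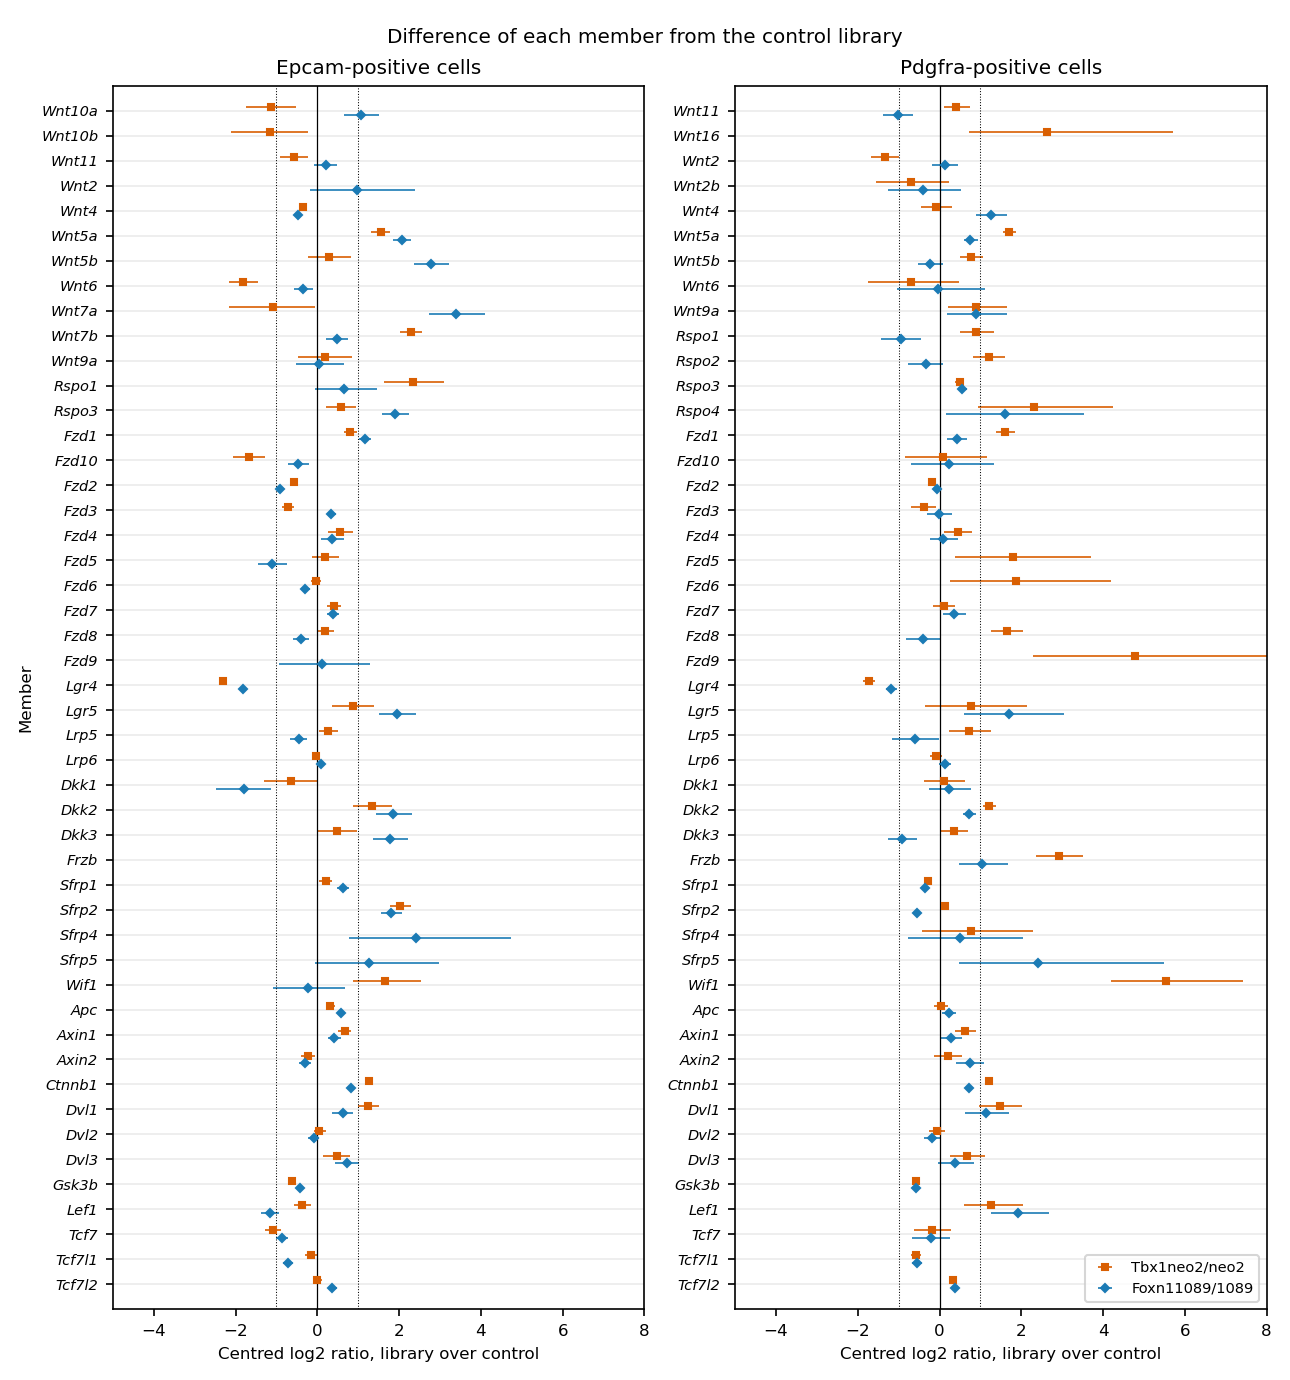
Centred log2 ratio of each compared member to the control library in Epcam-positive (left) and Pdgfra-positive cells (right), squares for the library labelled Tbx1neo2/neo2 and diamonds for Foxn11089/1089, with 95% counting intervals and dotted lines at 2-fold. Lgr4 lies left of the dotted line in every panel and library, Wif1 and Fzd9 lie far right for the library labelled Tbx1neo2/neo2 in Pdgfra-positive cells, and Wnt7a and Wnt5b for Foxn11089/1089 in Epcam-positive cells. Frzb in Epcam-positive cells, with 0 control UMIs, has no point.

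Cdh5-positive cells allowed fewer comparisons, with 51 control cells. Of 23 members compared for the library labelled Tbx1neo2/neo2, 9 were higher beside 15.2% of all genes and 2 lower beside 11.2%. Dkk2 was 4.10 higher (2.74 to 5.98) and Sfrp2 2.23 (1.33 to 3.31), and Gsk3b was lower at -1.03 (-1.25 to -0.82), or at -0.64 after thinning. For the Foxn11089/1089 library, 4 of 22 were higher beside 9.62% and 2 were lower beside 8.04%, Gsk3b at -1.25 (-1.46 to -1.04) among them (-0.94 after thinning). Fzd4 stayed inside 2-fold in both libraries, at 0.74 (0.29 to 1.22) and -0.01 (-0.47 to 0.47).

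Ptprc-positive cells showed the fewest members past 2-fold. For the library labelled Tbx1neo2/neo2, 4 of 29 were higher beside 5.37% and 2 were lower beside 7.53%, and Tcf7 was at 0.31 (0.24 to 0.38). For the Foxn11089/1089 library, 1 of 23 was higher beside 7.80%, Fzd8, and 3 were lower beside 8.48%. Lef1 was at -2.19 (-2.65 to -1.75), from 329 and 49 UMIs, and Lgr4 at -1.84 (-2.49 to -1.24), the latter at -0.75 after thinning. Tcf7 was at -0.82 (-0.92 to -0.71), inside 2-fold.

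The other genes of the pathway, 51 in all, were compared by the same rule. In Epcam-positive cells of the library labelled Tbx1neo2/neo2, 6 of 48 were higher and 1 lower, beside 7.46% and 10.8% of all genes. In those of the Foxn11089/1089 library, 4 of 49 were higher and 4 lower, beside 11.9% and 12.2%. The glypican Gpc3 was at 37.5 and 122 CPM in control and Tbx1neo2/neo2-labelled epithelium (1.30, 1.22 to 1.39) and the cyclin Ccnd1 at 17.8 and 63.5 CPM (1.44, 1.32 to 1.57). Kremen2, a Dkk receptor, was at 17.8 and 3.82 CPM in control and Foxn11089/1089 epithelium (-2.54, -2.73 to -2.35), and Bambi, a pseudoreceptor for TGF-β family ligands that responds to Wnt signals, at 40.6 and 21.2 CPM (-1.25, -1.35 to -1.15). In Pdgfra-positive cells 8 of 47 were higher and 1 lower in the library labelled Tbx1neo2/neo2 (9.73% and 9.28% of all genes), and 2 of 44 were higher and 0 lower in the Foxn11089/1089 library (3.54% and 6.39%). Cdh5-positive cells of the library labelled Tbx1neo2/neo2 had the most, 11 of 32 higher and 3 lower, beside 15.2% and 11.2% of all genes, against 51 control cells, and those of the Foxn11089/1089 library had 4 of 30 higher and 1 lower, beside 9.62% and 8.04%. In Ptprc-positive cells of the library labelled Tbx1neo2/neo2, 0 of 35 were higher and 0 lower, beside 5.37% and 7.53% of all genes. In those of the Foxn11089/1089 library 1 of 34 was higher and 1 lower, beside 7.80% and 8.48%.

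Response genes of canonical signalling are a list of 15 that includes the members Axin2, Lef1, Tcf7, Lgr5 and Dkk1. They did not go the same way in epithelium and mesenchyme of the 2 libraries. In Foxn11089/1089 epithelium 3 of 15 were higher (Notum, Sp5, Lgr5) and 4 lower (Lef1, Apcdd1, Bambi, Dkk1), with a median of -0.30, beside 11.9% and 12.2% of all genes. In epithelium of the library labelled Tbx1neo2/neo2, 1 of 14 was higher (Ccnd1) and 2 lower (Tcf7, Apcdd1), with a median of -0.31, beside 7.46% and 10.8%. In Foxn11089/1089 mesenchyme 4 of 13 were higher (Lef1, Notum, Sp5, Lgr5) and 0 lower, with a median of 0.54, beside 3.54% and 6.39%. Lgr5 lay inside 2-fold there after thinning. Notum, a secreted Wnt deacylase, was at 0.404 and 3.54 CPM there (2.92, 1.53 to 4.82). Sp5, a transcription factor gene induced by Wnt signals, was at 6.77 CPM in control mesenchyme, 21.2 CPM in the Foxn11089/1089 library (1.44, 1.08 to 1.82) and 1.77 CPM in the library labelled Tbx1neo2/neo2 (-2.33, -2.82 to -1.83). In mesenchyme of the library labelled Tbx1neo2/neo2, Lef1, Notum, Tnfrsf19 and Ccnd1 were higher and Sp5 lower, 4 and 1 of 14, beside 9.73% and 9.28%. Axin2 stayed inside 2-fold in both classes and libraries, from -0.30 to 0.74.

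The letters that TCF/LEF factors bind were sought in RefSeq promoter windows of 300 bases (GRCm38.p6, 50 of them after the start site) as CTTTGAT or CTTTGAA on either strand. They were in 8.65% of all 32851 windows and in 3 of the 50 windows of 41 members, those of Wnt5b, Wnt11 and Dkk1, and in 3 of 14 windows of the response genes, Sp5, Dkk1 and Tnfrsf19. Shown because they are the members with a match, plus Sp5 as the response gene that went opposite ways in the 2 libraries, are the 250 bases before each start site, with the match in capitals. They lie at chr6:119449387-119449636 (minus strand, Wnt5b), chr7:98834862-98835111 (plus strand, Wnt11), chr19:30549497-30549746 (minus strand, Dkk1) and chr2:70474673-70474922 (plus strand, Sp5). A match is a description of the letters only and not of a bound site.
Wnt5b: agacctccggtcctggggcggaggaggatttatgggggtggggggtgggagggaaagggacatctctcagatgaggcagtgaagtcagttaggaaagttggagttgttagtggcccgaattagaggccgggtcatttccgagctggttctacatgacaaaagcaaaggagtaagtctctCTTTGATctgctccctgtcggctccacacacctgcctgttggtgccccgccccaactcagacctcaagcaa
Wnt11: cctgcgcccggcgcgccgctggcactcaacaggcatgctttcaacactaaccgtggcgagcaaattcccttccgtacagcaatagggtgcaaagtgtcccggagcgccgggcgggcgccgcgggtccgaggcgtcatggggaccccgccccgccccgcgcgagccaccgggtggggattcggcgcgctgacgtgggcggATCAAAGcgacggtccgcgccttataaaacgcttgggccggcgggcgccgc
Dkk1: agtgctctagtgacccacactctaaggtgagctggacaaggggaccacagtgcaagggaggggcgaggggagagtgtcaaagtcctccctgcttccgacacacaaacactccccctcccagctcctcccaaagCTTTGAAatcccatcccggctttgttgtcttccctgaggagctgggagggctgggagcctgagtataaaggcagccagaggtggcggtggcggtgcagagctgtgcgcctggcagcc
Sp5: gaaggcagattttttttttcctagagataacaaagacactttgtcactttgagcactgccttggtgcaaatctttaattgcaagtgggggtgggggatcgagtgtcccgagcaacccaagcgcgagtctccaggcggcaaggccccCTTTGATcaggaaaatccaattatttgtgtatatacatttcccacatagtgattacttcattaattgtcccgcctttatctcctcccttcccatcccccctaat
The match began 71 bases before the start site of Wnt5b, 51 before that of Wnt11, 117 before that of Dkk1 and 104 before that of Sp5. Wnt5b stood at 11.9, 26.8 and 11.8 CPM in Pdgfra-positive cells, Wnt11 at 9.60, 16.8 and 5.46 CPM and Dkk1 at 4.04, 5.68 and 5.51 CPM. Whether the matches bear on these levels was not tested.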

How the data were processed

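Per the labels and the study's methods, the authors aligned 3' single-cell reads to mm10 with Cell Ranger 3.0.0 and named Seurat. The deposited files are filtered matrices of raw UMI counts per gene and barcode (6410, 5759 and 12447 barcodes), and no author normalization is in them. Barcodes with under 200 genes or at least 20% mitochondrial UMIs were left out, and cells with at least 10% globin UMIs were set aside as red blood cells. Pairs of libraries shared 17 to 28 barcode sequences. Cells with at least 1 UMI of a class gene, making up at least 80% of the 4 class genes' UMIs, formed the class. In 1.96% to 34.7% of a class's cells the gate rested on 1 UMI. Likely doublets (Scrublet, through scanpy 1.11.5: 329, 265 and 1239) were kept, and leaving them out was an alternative.

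Counts were summed per class and library and given as CPM with exact Poisson intervals. Ratios have exact conditional binomial intervals, and shares of cells have Clopper-Pearson intervals. With 1 library per genotype no count model was run. The ratio code was tested on simulated data. A count of 0 allows up to 3 UMIs. Named members were, per role, the 5 with the highest control CPM in any class, and per class and comparison up to 5 past 2-fold in each direction with at least 100 UMIs, with others given as values and chosen after these were seen. The members and lists were chosen with earlier results of these data known. Cell groups by 3 markers were set after thinning to 2000 UMIs. There were 13 alternatives, 12 planned and 1, dropping the globin limit, added after seeing the data, as was the use of red blood cells without class genes as background. Coordinates are from GENCODE (GRCm38), the build of mm10, and promoters from RefSeq. Analyses used Python 3.11.15, numpy 2.4.6, scipy 1.17.1 and pandas 2.3.3. Results for 1 group of marker genes are not reported here.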

Additional observations from a re-analysis of the deposited data

Results flagged for a closer look

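Lef1 in the Foxn11089/1089 library went opposite ways in different cell classes against the same control, at -1.16 in Epcam-positive, 1.93 in Pdgfra-positive and -2.19 in Ptprc-positive cells on the centred log2 scale. The difference between classes was not tested, since each genotype has 1 library.

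Cells with a UMI of none of the 4 class genes enter no comparison and had a median of 4881, 1048 and 1166 UMIs. They held more of some members, Rspo1, Sfrp5 and Wif1 among them, than any class did in the library labelled Tbx1neo2/neo2. Rspo1 reached 30.7 CPM there in the library labelled Tbx1neo2/neo2 and 25.8 CPM in the Foxn11089/1089 library, with a UMI in 102 of 2040 and 40 of 1725 of those cells. Sfrp5, a Frizzled-related inhibitor, was at 4.23 CPM in the control, 17.8 CPM in the library labelled Tbx1neo2/neo2 and 7.04 CPM in the Foxn11089/1089 library. Wif1 was at 0.746, 46.3 and 0.470 CPM in these cells, in the same order.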

How the results depend on the processing

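Recomputed centred ratios of named members kept their direction and stayed past 2-fold 387 times, and kept it inside 2-fold 37 times, with none reversed under the alternatives run. Summed ligand levels stayed within their counting interval 90 times and moved beyond it 18 times. Counts of members past 2-fold stayed within 1.5 times 153 times, were smaller 45 times and larger 10 times. The exceptions follow, as counts of members, with T for the library labelled Tbx1neo2/neo2 and F for Foxn11089/1089. Thinned to 2000 UMIs per cell, lower members in T were 2 (Epcam), 1 (Pdgfra), 0 (Cdh5) and 0 (Ptprc), higher ones 2 (Cdh5) and 1 (Ptprc), lower members in F 2 (Epcam), 0 (Cdh5) and 1 (Ptprc), and higher ones 3 (Pdgfra), 0 (Cdh5) and 0 (Ptprc). Not centred, higher members in T were 23 (Pdgfra), 16 (Cdh5) and 8 (Ptprc), lower ones 3 (Epcam), 1 (Pdgfra), 1 (Cdh5) and 1 (Ptprc), and lower members in F 2 (Epcam), 0 (Pdgfra) and 1 (Cdh5). Without cells of other panels, lower members in T were 4 (Epcam), 1 (Pdgfra) and 1 (Cdh5), and higher members in F 2 (Cdh5) and 0 (Ptprc). Centred on genes with at least 300 UMIs, T had 15 higher and 1 lower in Cdh5-positive cells. Over genes with at least 100 UMIs, T had 4 lower (Epcam), 4 higher and 0 lower (Cdh5), 1 higher and 1 lower (Ptprc), and F 0 higher and 1 lower (Cdh5) and 0 higher (Ptprc). Over genes with at least 10 UMIs, T had 9 higher (Ptprc), and F 8 lower (Epcam), 2 higher and 5 lower (Ptprc). With classes by 5 markers, T had 5 higher and 1 lower (Cdh5), and F 1 higher (Cdh5) and 3 higher (Ptprc). With the other 3 class genes at 0, T had 1 lower (Cdh5), and F 1 lower (Pdgfra) and 0 higher (Cdh5). With at least 2 UMIs of the class gene, T had 2 higher (Ptprc) and F 0 higher (Ptprc). Without likely doublets, T had 1 lower (Cdh5) and 2 higher (Ptprc), and F 2 higher (Cdh5) and 2 higher (Ptprc). With no globin limit, F had 0 higher (Ptprc). The cause of these shifts was not tested. The number of members compared and the share of all genes called under each alternative are not given here. These counts therefore describe the calls only. Ratios with 0 UMIs in a group after thinning were left out. No paired analysis was possible because each genotype had 1 library, so no replicate could be left out either.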

Other observations

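Among cells without a class gene in the library labelled Tbx1neo2/neo2, marker groups differed in which members they held. The 35 cartilage-marker cells had 512 CPM of Wif1, 331 CPM of Wnt5a and 205 CPM of Dkk2. The 115 pericyte- and smooth-muscle-marker cells had 69.4 CPM of Frzb and 108 CPM of Fzd1. The 38 skeletal-muscle-marker cells (Myod1, Myog, Myf5, Des, Actc1) had 0 UMIs of Frzb and 105 CPM of Tcf7l2. Macrophage-marker cells among the Ptprc-positive cells held 0, 9.69 and 9.74 CPM of Tcf7 in the control, the library labelled Tbx1neo2/neo2 and the Foxn11089/1089 library, against 267 CPM in the control's thymocyte-marker cells.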
